A study of Homo sapiens with 6 samples.

Results

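The genes described here are TP63, TRIM29 and 7 regulators of stratified epithelium, namely KLF4, KLF5, GRHL2, OVOL1, ZNF750, TFAP2A and TFAP2C. They were chosen by symbol, with log2 differences of the libraries without EGF from the passage 6 controls already known, in which TRIM29 stood out. They are 9 of the 57820 Ensembl gene rows of the deposited table, and 6 passed the filter on low values (a mean normalised value of at least 10). RNA came from hTert-HME1, a single telomerase-immortalised line derived from human mammary epithelium. All cells were transfected with an siRNA, the labels giving control-1 or BRCA2-2, and the medium (MEGM, for mammary epithelium) either held EGF, a growth factor that activates EGFR, or lacked it. The 2 libraries of cells without EGF were labelled BRCA2 siRNA, at passage 6 (replicates A and B). With EGF there were 1 library labelled BRCA2 siRNA at passage 4, 2 labelled control siRNA at passage 6 (replicates A and B) and 1 labelled control siRNA at passage 4. Control siRNA without EGF was not analysed here, so siRNA and medium cannot be told apart at passage 6. Nothing in the labels says that replicates came from separate cultures, so p-values cover only differences among these libraries, possibly technical ones.

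TP63 encodes p63, a transcription factor of the p53 family that basal cells of stratified and glandular epithelia need for their identity. Its short isoforms, which lack the first activation domain, prevail in such cells, and a gene row cannot separate isoforms. Around it act factors of several families. KLF5 is known from proliferating basal layers and KLF4 from barrier formation. GRHL2 and OVOL1 maintain epithelial junction genes and oppose mesenchymal regulators, ZNF750 acts below p63 in terminal differentiation, and the AP-2 factors TFAP2A and TFAP2C bind regulatory elements of keratinocytes and mammary cells.

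Upstream sequence was searched only for TP63, KLF4, KLF5 and TFAP2A, from RefSeq on build GRCh38.p14. The windows of TP63, KLF4 and TFAP2A are shown because of these 4 genes they vary most between libraries. Each window is the 250 bases before an annotated start, 5′ to 3′ on the gene's strand. Capitals mark matches, on either strand, to the AP-2 letters GCCNNNGGC or the KLF letters CACCC. For TP63 the window lies before the start of the long isoforms, at chr3:189631139-189631388 on the plus strand. The KLF4 window is chr9:107489770-107490019, and those of TFAP2A are chr6:10419660-10419909 and chr6:10412392-10412641, all on the minus strand.
TP63: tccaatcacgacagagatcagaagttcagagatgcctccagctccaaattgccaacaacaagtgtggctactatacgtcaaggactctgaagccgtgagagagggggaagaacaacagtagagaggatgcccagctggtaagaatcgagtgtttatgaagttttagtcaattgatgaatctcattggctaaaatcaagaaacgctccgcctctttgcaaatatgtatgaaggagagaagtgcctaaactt
KLF4: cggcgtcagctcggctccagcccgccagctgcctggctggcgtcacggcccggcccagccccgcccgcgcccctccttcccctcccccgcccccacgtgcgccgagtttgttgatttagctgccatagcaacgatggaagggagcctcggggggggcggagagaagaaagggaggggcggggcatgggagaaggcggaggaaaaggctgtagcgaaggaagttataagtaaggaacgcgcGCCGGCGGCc
TFAP2A, first window: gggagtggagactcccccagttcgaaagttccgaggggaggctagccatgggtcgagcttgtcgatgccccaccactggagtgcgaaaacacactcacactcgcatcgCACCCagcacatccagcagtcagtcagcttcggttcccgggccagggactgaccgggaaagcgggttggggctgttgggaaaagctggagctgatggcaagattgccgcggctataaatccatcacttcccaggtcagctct
TFAP2A, second window: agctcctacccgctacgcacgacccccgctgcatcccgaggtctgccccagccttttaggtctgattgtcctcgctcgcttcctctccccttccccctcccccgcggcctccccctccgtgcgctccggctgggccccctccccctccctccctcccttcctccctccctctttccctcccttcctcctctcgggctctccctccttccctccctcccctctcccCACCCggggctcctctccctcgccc
The KLF4 window held 1 AP-2 match and 0 KLF matches, each TFAP2A window held 1 KLF match, and the TP63 window held 0 of either. Among 35116 annotated windows of the same length, 19.8% held the AP-2 letters and 54.7% the KLF letters. A match is a description of letters and not a site. The base composition also differed, with 44.0% G or C in the TP63 window and 69.2% in that of KLF4.

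Some facts of the whole series bear on what follows. Values are normalised log2 values of unknown transformation, so sequencing depth cannot be read from them and counting intervals are left out. BRCA2 was at 11.15 (A) and 10.89 (B) without EGF, where its siRNA is labelled, against 11.25 (A) and 11.24 (B) in the passage 6 controls. That difference was -0.23 ± 0.11 (standard error, adjusted p = 0.23, limma), so a fall of BRCA2 was not called at passage 6. At passage 4 BRCA2 was at 10.88 in the library labelled BRCA2 siRNA and at 10.19 in that labelled control. The passage 4 label is thus not borne out by the targeted gene. The passage 4 library labelled BRCA2 siRNA also differed less from the passage 6 controls (SD of differences over tested genes 0.290 and 0.321) than the passage 4 control did (0.485 and 0.509). Every comparison with a passage 4 library thus holds by label only. The values of both such libraries are given for each of the 6 genes that passed the filter. Passage 6 controls A and B differed by an SD of only 0.119, against 0.308 for the pair without EGF, and many calls rest on that closeness. All 10 basal mammary markers passed the filter, KRT5 and KRT14 among them, as did 7 of 12 luminal markers, KRT7, KRT8 and KRT18 among them, but not EPCAM, KRT19, ELF5, PGR and KIT. Of haematopoietic markers 0 of 8 passed.

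TRIM29 encodes a tripartite motif protein without a RING domain that binds p53 and is abundant in basal epithelial layers. Its log2 value was 9.02 (A) and 9.13 (B) in cells without EGF, against 6.14 (A) and 6.23 (B) in the passage 6 controls. It was 6.62 in the passage 4 library labelled BRCA2 siRNA and 6.69 in the passage 4 control. Both libraries without EGF thus stood above all 4 with EGF, which themselves spanned less than 1 log2 unit. The difference from the passage 6 controls was 2.89 ± 0.10 on the log2 scale (standard error), 7.43-fold, and from the passage 4 library labelled BRCA2 siRNA 2.46 ± 0.12, 5.49-fold.

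TP63 had log2 values of 13.11 (A) and 13.71 (B) without EGF, against 12.53 (A) and 12.41 (B) in the passage 6 controls. At passage 4 it was at 12.62 in the library labelled BRCA2 siRNA and at 13.13 in the control. From the top, the order was replicate B without EGF, the passage 4 control, replicate A without EGF, the passage 4 library labelled BRCA2 siRNA and the passage 6 controls. The second and the third in that order lay closer together than the replicates without EGF, and so did the last 3. At passage 6 the groups did not overlap and differed by 0.94 ± 0.21 (standard error), 1.92-fold. The passage 4 control lay within the range of the group without EGF, so no gap remained against controls of both passages.

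**Figure D1:**
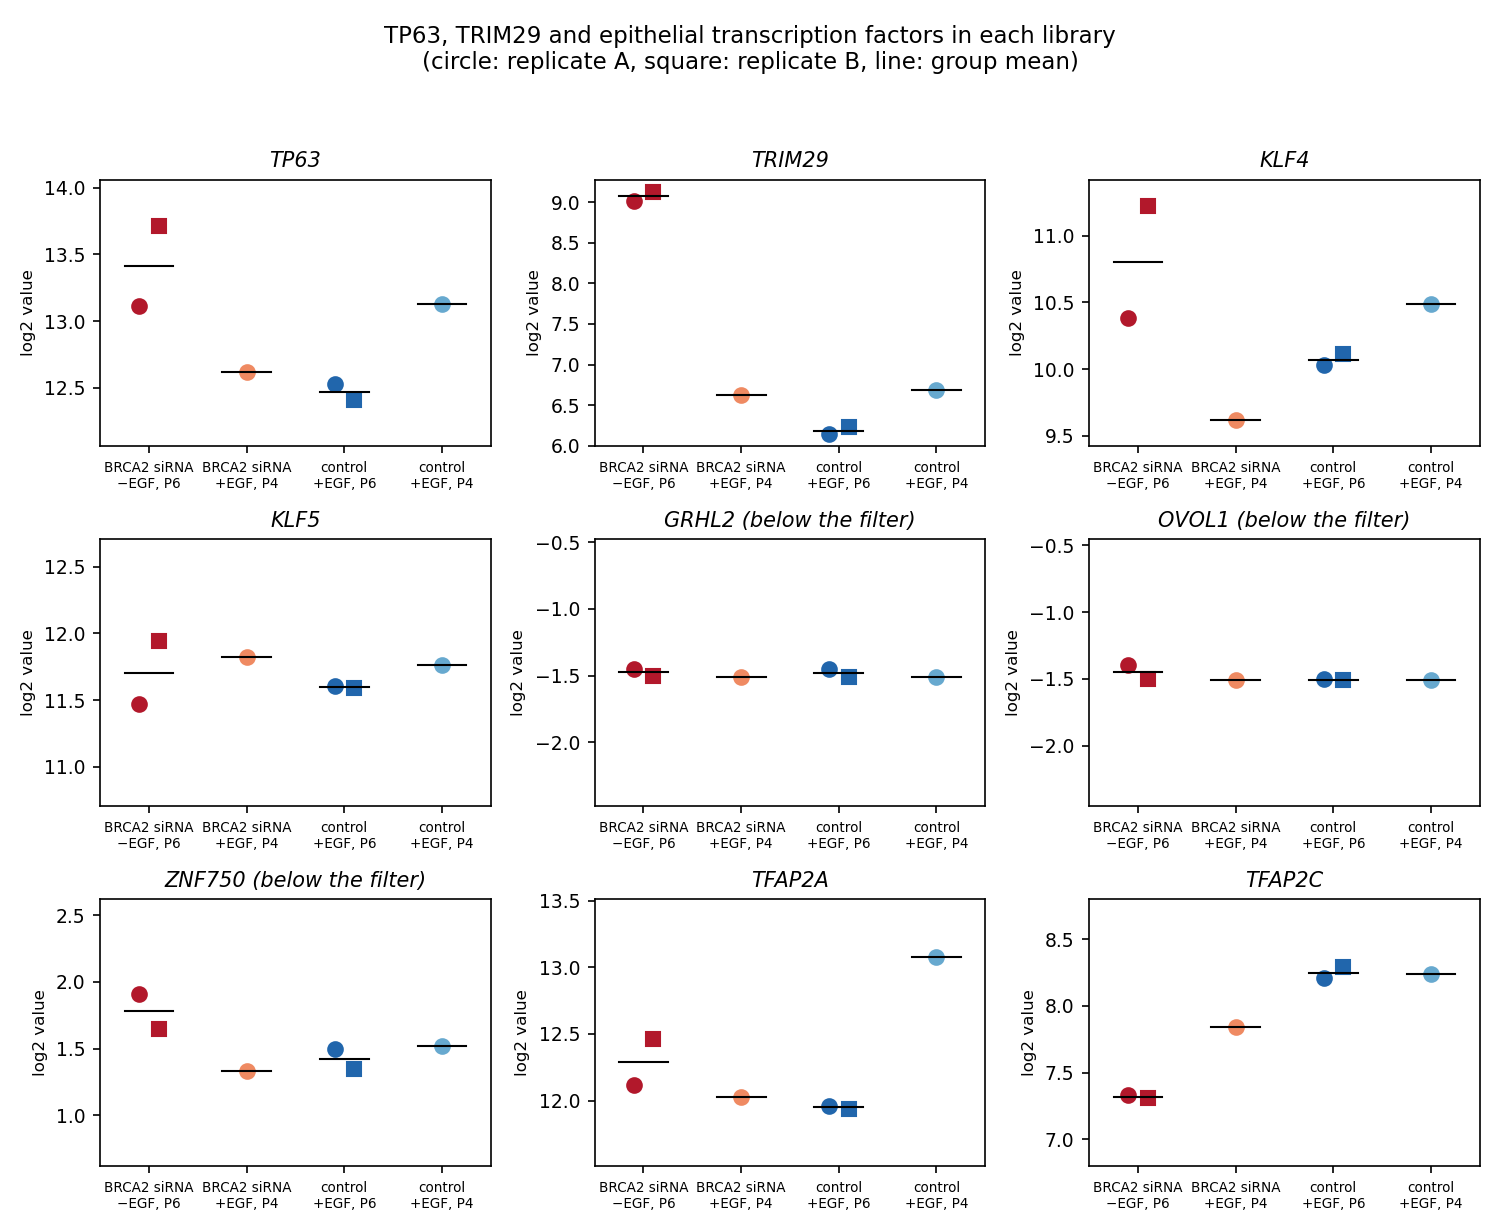
Log2 values of the 9 genes in each of the 6 libraries, by siRNA label, medium and passage (P4, P6), with circles for replicate A, squares for replicate B and a line at the group mean. TRIM29 stands at 9.02 and 9.13 without EGF and TFAP2C at 7.33 and 7.31, outside the range of the 4 libraries with EGF, whereas TFAP2A is highest in the passage 4 control, at 13.08.

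The Krüppel-like factors are zinc finger proteins. KLF4 had log2 values of 10.38 (A) and 11.22 (B) without EGF, against 10.03 (A) and 10.11 (B) in the passage 6 controls. It had 9.62 in the passage 4 library labelled BRCA2 siRNA and 10.49 in the passage 4 control. The groups at passage 6 did not overlap, but the 2 libraries without EGF lay further apart from each other than replicate A lay from either control. Their difference from the passage 6 controls was 0.73 ± 0.28 (standard error), 1.66-fold. KLF5 had 11.47 (A) and 11.94 (B) without EGF, against 11.61 (A) and 11.59 (B) in the passage 6 controls, 11.82 in the passage 4 library labelled BRCA2 siRNA and 11.76 in the passage 4 control. The group without EGF contained the values of all other libraries, and its difference from the passage 6 controls, 0.10 ± 0.17 (standard error), was below its error. Over all 6 libraries KLF5 spanned 0.47 on the log2 scale, the least of the 6 genes that passed the filter, and KLF4 spanned 1.60.

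The AP-2 factors bind GC-rich elements as dimers. TFAP2C, the AP-2 gamma gene, had log2 values of 7.33 (A) and 7.31 (B) without EGF, against 8.21 (A) and 8.29 (B) in the passage 6 controls. It had 7.84 in the passage 4 library labelled BRCA2 siRNA and 8.24 in the passage 4 control. It was thus lower without EGF than in all 4 libraries with EGF, by 0.93 ± 0.09 (standard error) against the passage 6 controls, a ratio of 0.526. TFAP2A, the AP-2 alpha gene, had 12.12 (A) and 12.46 (B) without EGF, against 11.96 (A) and 11.94 (B) in the passage 6 controls. It had 12.03 in the passage 4 library labelled BRCA2 siRNA and 13.08 in the passage 4 control. Its highest value was that of the passage 4 control, above both libraries without EGF. The difference without EGF was 0.33 ± 0.13 (standard error) against the passage 6 controls and -0.04 against the controls of both passages, so its sign depends on which controls are used.

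GRHL2, OVOL1 and ZNF750 lay below the filter on low values. GRHL2 had log2 values of -1.45 (A) and -1.50 (B) without EGF, -1.51 in the passage 4 library labelled BRCA2 siRNA, -1.45 (A) and -1.51 (B) in the passage 6 controls and -1.51 in the passage 4 control. For OVOL1 the range was -1.51 to -1.40. Only 16.7% and 18.4% of rows that were not 0 throughout had a mean at or below those of GRHL2 and OVOL1, and 43.7% for ZNF750. ZNF750 had 1.91 (A) and 1.65 (B) without EGF, 1.33 in the passage 4 library labelled BRCA2 siRNA, 1.50 (A) and 1.35 (B) in the passage 6 controls and 1.52 in the passage 4 control. No fold change is given for these 3 genes, whose values lie where a shrinking transformation would hide differences. ZNF750 lies within TBCD on the opposite strand, in GENCODE version 29, and TBCD had log2 values of 10.58 (A) and 10.60 (B) in the passage 6 controls. TFAP2A overlaps the antisense gene TFAP2A-AS1, at 4.70 to 5.26. Whether counting used strand is not given in the sources used here, so reads of such partners cannot be told apart.

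The comparison without EGF against the passage 6 controls addressed siRNA and medium together. It was known when the genes were chosen, TRIM29 being among its largest differences, so the 9 genes are described here with no test. Of the 6 that passed the filter, 5 were above 0, with a median log2 difference of 0.53, against a median of -0.02 over the 14763 genes tested. The groups did not overlap for 5 of the 6, all but KLF5, 4 higher and TFAP2C lower, as for 64.9% of tested genes (29.2% higher and 35.7% lower). The libraries without EGF did not overlap all 4 with EGF for 2 of the 6, TRIM29 above and TFAP2C below. Of tested genes 38.8% did not overlap in this way, 16.6% above and 22.2% below.

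Within cells labelled BRCA2 siRNA, the libraries without EGF at passage 6 were set against that with EGF at passage 4. They are the same libraries without EGF as above, so the 2 comparisons are not independent, and medium and passage cannot be told apart here. The 9 genes were chosen with differences of these libraries known, TRIM29 standing out, so their p-values here are no independent test. The passage 4 library is the one whose label BRCA2 goes against, and against the other passage 4 library the values lie differently, with TFAP2A at 12.29 without EGF (mean), against 12.03 in the library labelled BRCA2 siRNA and 13.08 in that labelled control. TRIM29 rose by 2.46 ± 0.12 log2 units (standard error; adjusted p = 0.0120 by limma) and TFAP2C fell by 0.52 ± 0.11 (adjusted p = 0.0425). These were 2 of the 6 genes, 1 higher and 1 lower, against 16.3% of all tested genes called, 7.41% higher and 8.89% lower. TP63 had a difference of 0.79 ± 0.26 (adjusted p = 0.0999), KLF4 1.18 ± 0.35 (0.0793), TFAP2A 0.25 ± 0.16 (0.305) and KLF5 -0.11 ± 0.21 (0.718). The call of TRIM29 was lost with passages pooled into 3 groups (adjusted p = 0.0512) and with no filter (0.0595), where TFAP2C lost its call too (0.242 and 0.0787). TFAP2C also lost it with libraries centred (0.0516), with the replicate block (0.110), with the passage 6 controls averaged, and without control A or control B at passage 6 (0.217 each).

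Between the controls, passage 6 against passage 4, most of the genes were lower at passage 6. TFAP2A fell by 1.12 ± 0.16 log2 units (standard error; adjusted p = 0.0245 by limma), to 11.95 in the passage 6 controls (mean), against 13.08 in the passage 4 control. TRIM29 fell by 0.51 ± 0.12 (adjusted p = 0.0495, limma), to 6.18 in the passage 6 controls, against 6.69 in the passage 4 control. TRIM29 stood out against these same passage 6 controls when the genes were chosen. The p-values of the chosen genes are thus no independent test here. The passage 4 library labelled BRCA2 siRNA had 12.03 for TFAP2A and 12.62 for TP63, nearer to the passage 6 controls, so these differences hold by label only. For TRIM29 it had 6.62, so both passage 4 libraries lay above the passage 6 controls, though which is the control rests on the label. TP63 had a difference of -0.66 ± 0.26 (adjusted p = 0.128), KLF4 -0.42 ± 0.35 (0.401), KLF5 -0.16 ± 0.21 (0.583) and TFAP2C 0.01 ± 0.11 (0.959). The 2 called genes of 6 stand against 20.1% of all tested genes (12.4% lower), and 5 of the 6 were below 0. The calls of TFAP2A and TRIM29 were lost without control A (adjusted p = 0.166 and 0.318) or control B (0.206 and 0.285) of passage 6, and 0 genes of the table were then called, with 2959 and 2674 at an unadjusted p under 0.05.

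The passage 4 library labelled BRCA2 siRNA was also set against the passage 4 control, with 1 library each and thus no replicate check and no test. TFAP2A differed most, at 12.03 against 13.08, a difference of -1.04 on the log2 scale, and was the only 1 of the 6 past a difference of 1, which 2.21% of tested genes reached, 1.04% on the lower side. KLF4 differed by -0.87, TP63 by -0.50, TFAP2C by -0.40, TRIM29 by -0.08 and KLF5 by 0.05. With libraries centred on their medians or quantile normalised, TFAP2A no longer reached 1. The passage 4 control is the higher library of this pair and of the pair of passages for TFAP2A, TP63, KLF4 and TRIM29, and both comparisons share it.

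**Figure D2:**
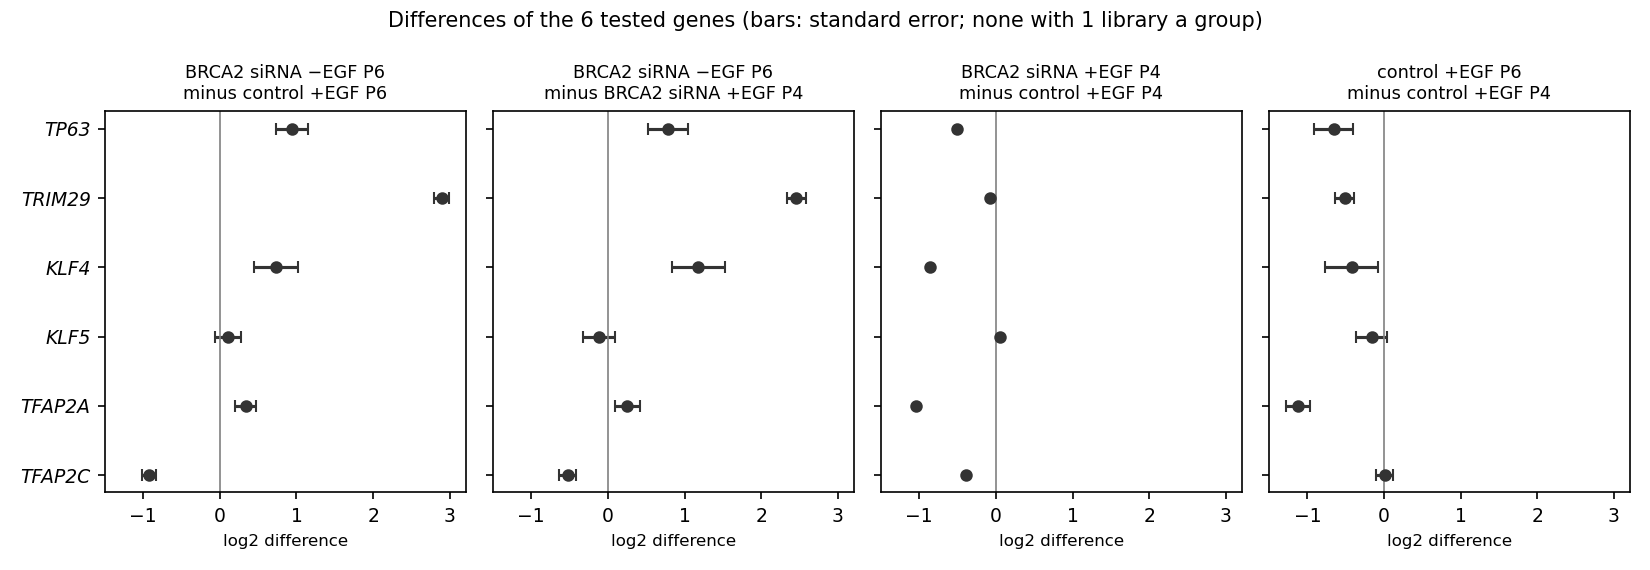
Log2 differences of the 6 genes that passed the filter, with the standard error of the limma fit as bars, in the 4 comparisons. The comparison within passage 4, with 1 library a group, has no bars. TRIM29 lies at 2.89 and 2.46 in the comparisons without EGF, and TFAP2A at -1.04 and -1.12 in the comparisons with the passage 4 control.

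Genes known as targets of p63 in basal epithelium were, for 18 of 22, above 0 in the difference without EGF from the passage 6 controls. Of these 22, all tested, 12 rose and 1 fell by the limma fit, and the list had a median log2 difference of 0.74. Of all tested genes 6.44% were called, 3.56% higher and 2.88% lower. The list was chosen with earlier results of these data known, so these counts describe it and do not test it. The lists below, of relatives, other factors, junction and differentiation genes and cell markers, were chosen in the same way. Their calls and adjusted p-values without EGF are likewise no test of a list. The growth factor receptors FGFR3 (1.75 ± 0.32, standard error) and FGFR2 (1.43 ± 0.15) and the kinase RIPK4 (1.17 ± 0.07) differed most, with adjusted p of 0.0497, 0.0188 and 0.00783 (limma). The call of FGFR3 was lost in 8 alternative settings and kept in 7. KRT5 was at 17.86 (A) and 17.58 (B) without EGF, against 16.97 (A) and 16.90 (B) in the passage 6 controls, and its partner KRT14 at 17.62 (A) and 17.34 (B), against 16.71 (A) and 16.72 (B). Of the 4 targets below 0, the only one called lower was FERMT1, which encodes the focal adhesion protein kindlin-1, by 0.55 (adjusted p = 0.0474). That call was lost with libraries centred, with quantile normalisation and with the filter at 50, among other settings. FGFBP1 was lower by more, with a difference of -0.83, but was not called (adjusted p = 0.341, limma). With the passage 6 controls averaged into 1 library 0 of the 22 passed, and with passages pooled into 3 groups 3 rose. Between the passages of the controls the same list had a median of -0.02, with 2 higher and 3 lower. Of all tested genes 7.71% were called higher and 12.4% lower there.

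Relatives of the 9 genes moved in part. Of 19 tested relatives 2 rose without EGF and 0 fell, with a median of 0.25. GRHL3, the grainyhead factor of barrier formation, rose by 1.83 ± 0.22 (standard error, adjusted p = 0.0229, limma), at 7.51 (A) and 8.02 (B) without EGF, against 5.76 (A) and 6.11 (B) in the passage 6 controls. It was the grainyhead gene that passed the filter, GRHL2 and GRHL1 lying below it. KLF8 rose by 0.97 (adjusted p = 0.0239), and TP73, a sister gene of TP63, had 0.95 (adjusted p = 0.102). Between the controls 0 relatives were higher at passage 6 and 5 were lower, among them KLF15 (-1.53) and KLF16 (-0.95). The median was -0.45, and 7.71% and 12.4% of tested genes were called higher and lower. KLF15 was at 3.41 and KLF16 at 7.95 in the passage 4 library labelled BRCA2 siRNA. Both lay nearer to the passage 6 controls than to the passage 4 control (4.58 and 8.68), so these differences hold by label only. With the passage 6 controls averaged, 0 relatives passed in either comparison.

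Of 23 other tested epithelial transcription factors, 3 rose and 1 fell without EGF, with a median of 0.12. MAF, which acts in epidermal differentiation, rose by 1.47 (adjusted p = 0.0298, limma), and SOX9, known from progenitor cells, fell by 1.14 (0.0277). The receptor NOTCH1 rose by 0.63 (adjusted p = 0.0364). In the passage 4 control, NOTCH1 (12.43) and MAF (7.29) lay within the range of the libraries without EGF, and NOTCH1 fell by 0.60 at passage 6 between the controls (adjusted p = 0.0373). Between the controls 6 of the 23 fell at passage 6 and 0 rose, against 12.4% and 7.71% of tested genes called lower and higher. MAF fell by 1.60 and the Notch target HES1 by 1.44 (adjusted p = 0.0262 and 0.0231, limma). The passage 4 library labelled BRCA2 siRNA had 11.4 for NOTCH1, below the passage 6 controls at 11.78 (A) and 11.88 (B). It had 6.03 for MAF and 9.8 for HES1, nearer to those controls than to the passage 4 control. These falls thus hold by label only. EHF, an ETS factor of epithelia, was at 6.27 in the passage 4 library labelled BRCA2 siRNA, against 4.30 in the passage 4 control, and 3.76 to 4.73 in the passage 6 libraries. With the passage 6 controls averaged 0 of the 23 passed in the comparison without EGF or between the controls.

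Factors known to oppose the epithelial program were listed too. Of 7 tested mesenchymal transcription factors 0 rose and 1 fell without EGF against the passage 6 controls, with a median of -0.16. FOXC2 fell by 0.67 (adjusted p = 0.0457, limma), a call lost with libraries centred on their medians, under which 1 other rose, and with the passage 6 controls averaged. TCF4 had 0.63 (adjusted p = 0.0518) and ZEB2 0.40 (0.140), and ZEB1, a repressor of CDH1, was at 9.79 (A) and 10.07 (B) without EGF, against 10.26 (A) and 10.25 (B). SNAI2 was lower by 0.79 at passage 6 than at passage 4 in the controls (adjusted p = 0.0235, limma). It was at 13.18 in the passage 4 control and at 12.93 in the passage 4 library labelled BRCA2 siRNA.

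Junction and epithelial membrane genes, among them known targets of grainyhead and OVOL factors, were listed together with the splicing regulators ESRP1 and ESRP2. The list had a median of 0.93 without EGF against the passage 6 controls. Of 12 tested 7 rose, ESRP1 among them, and 0 fell. CDH1, the E-cadherin gene, was at 9.78 (A) and 9.79 (B) without EGF, against 7.60 (A) and 7.42 (B) in the passage 6 controls, and GRHL2 lay at the bottom of the table in all of them. The desmosomal cadherin DSG3 rose by 1.61 (adjusted p = 0.0474, limma), a call lost in 8 alternative settings and kept in 7. The tight junction gene CLDN1 had 2.13 with an adjusted p of 0.0741 (limma). With the passage 6 controls averaged 1 of the 12 passed, and with passages pooled 2. Of 11 tested squamous differentiation genes 5 rose and 0 fell, with a median of 0.48. DSG1, a desmosomal cadherin of differentiating layers, was at 6.15 (A) and 5.78 (B) without EGF, against 3.23 (A) and 3.21 (B), SPRR1B, a cornified envelope gene, rose by 1.51 and the transglutaminase TGM1 by 1.10. With the passage 6 controls averaged 1 of the 11 passed.

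**Figure D3:**
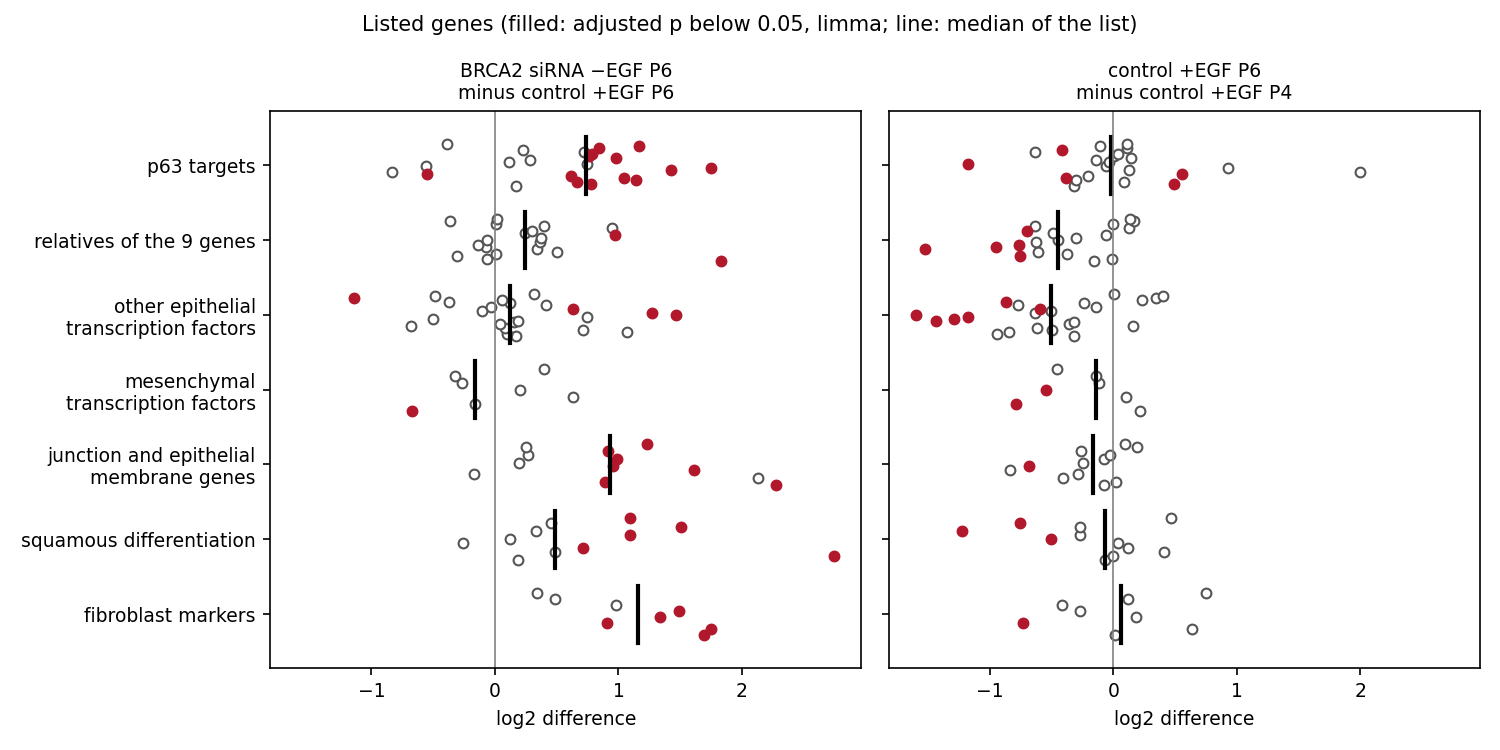
Log2 differences of the tested genes of 7 lists, without EGF against the passage 6 controls (left) and passage 6 against passage 4 in the controls (right). Filled points passed the limma test at an adjusted p below 0.05 and open points did not. Lines are medians, which on the left lie at 0.74 for p63 targets and 0.93 for the list of junction and epithelial membrane genes. That list also holds ESRP1 and ESRP2. The lists were chosen with earlier results of these data known, so the filled points do not test a list.

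Markers of fibroblasts, which a mammary culture could hold, moved with these groups. Of 8 tested markers (10 listed, 0 of them at 0 throughout) 5 were called higher without EGF than in the passage 6 controls and 0 lower. COL3A1 rose by 1.75 and COL1A1 by 1.69, and 2 markers were called with the passage 6 controls averaged. Their summed normalised value was 6907 to 7088 without EGF, against 2248 to 2621 in the passage 6 controls. It was 4373 in the passage 4 library labelled BRCA2 siRNA and 2446 in the passage 4 control. DCN and LUM were highest in that library labelled BRCA2 siRNA, at 10.11 and 8.82. Without EGF DCN was at 9.03 (A) and 9.10 (B), and LUM at 7.57 (A) and 8.10 (B). Against that library 4 markers were called higher without EGF and 1, DCN, lower. The part of fibroblast markers in the results above was not tested, and in bulk RNA fewer cells of a type and less RNA per cell cannot be told apart. Of the endothelial markers 2 of 8 were tested, and KDR was at 9.14 (A) and 9.54 (B) without EGF, against 8.04 (A) and 8.19 (B) in the passage 6 controls, 8.46 in the passage 4 library labelled BRCA2 siRNA and 10.07 in the passage 4 control, the highest value. CDH5 was at 0 throughout. Summed luminal markers were 34794 to 34849 without EGF, against 34598 to 35826 in the passage 6 controls, a sum in which KRT7 (14.78 to 15.12 on the log2 scale) weighs most. Within that list KRT18 fell by 0.85 (adjusted p = 0.0162, limma) and MUC1 rose by 0.91 (0.0374). Summed basal markers were 638883 to 690697, against 436488 to 442870, a sum in which KRT5 and KRT14 weigh most. Both are also on the list of p63 targets. Of the 10 basal markers 5 were called higher and 0 lower (limma), against 3.56% and 2.88% of all tested genes.

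Genes whose profile over the 6 libraries came nearest to TP63 and TRIM29 were sought among 11817 others with a mean normalised value of at least 50, by the root mean square distance between log2 values centred on their mean. Nearest to TP63 were AJUBA (0.0755), SSBP2 (0.0765), RFX2 (0.0836), CLASP1 (0.0871) and MAPK10 (0.0871), where the median gene lay at 0.499. Each had its highest value in replicate B without EGF, as AJUBA did with 13.30, against 12.20 to 12.24 in the passage 6 controls. Nearest to TRIM29 were GRIA3 (0.195), TENM2 (0.238), FABP4 (0.283), TLL1 (0.308) and CDH1 (0.321), where the median gene lay at 1.31. In these, as in TRIM29, both libraries without EGF stood above the others, GRIA3 at 7.11 (A) and 7.28 (B), against 4.27 (A) and 4.12 (B) in the passage 6 controls. The 5 genes nearest to each were found in the same 6 libraries, and 6 libraries cannot separate many profiles.

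**Figure D4:**
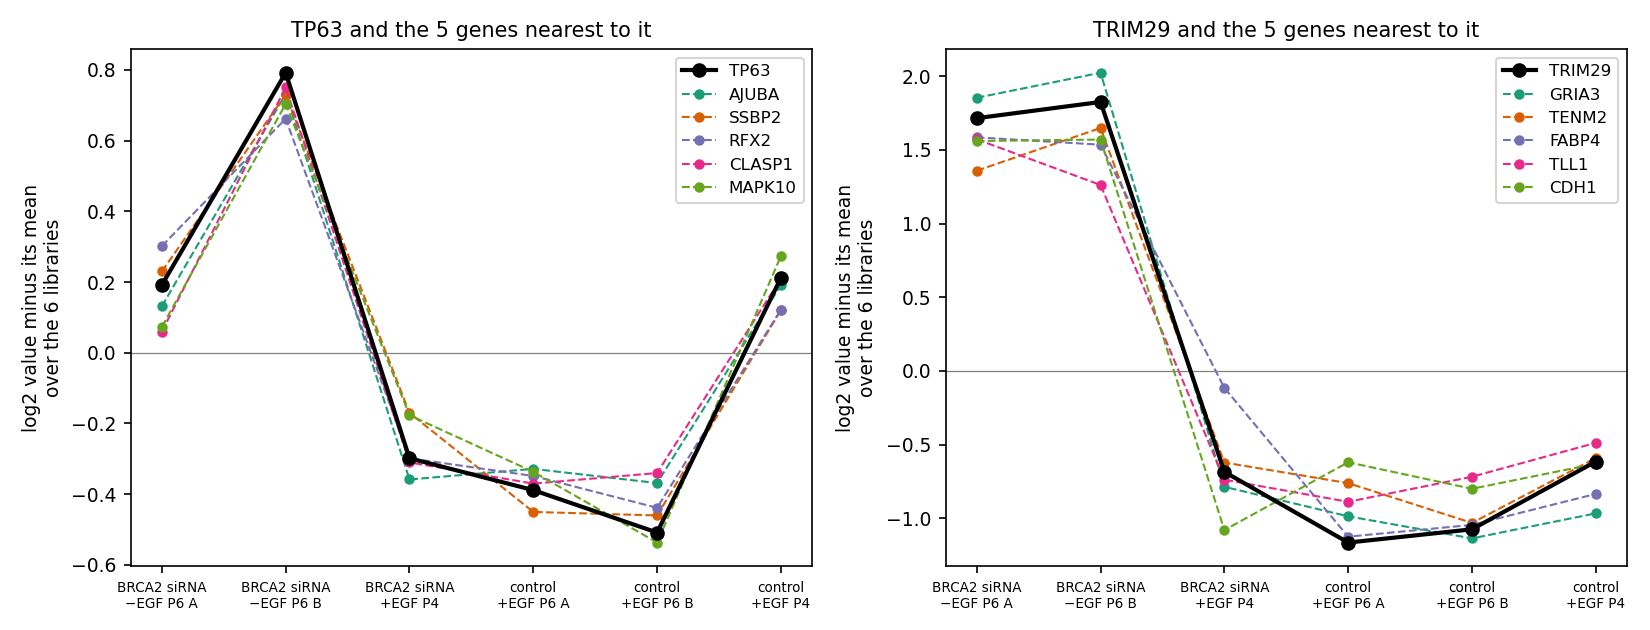
Log2 values of TP63 (left) and TRIM29 (right) and of the 5 genes nearest to each, minus each gene's mean over the 6 libraries. TP63 and its neighbours peak in replicate B without EGF and are raised in the passage 4 control, where TP63 is at 13.13, while TRIM29 and its neighbours are high in both libraries without EGF.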

How the data were processed

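Polyadenylated RNA was sequenced in 6 libraries from column-extracted, bead-purified RNA and a ScriptSeq kit, per the labels' protocols. The submitters' processing notes name TopHat2 2.0.11, DESeq2 and build hg19. Which program counted reads, with which annotation, and how values were transformed is not stated. Deposited by the authors were log2 values from -1.98 to 19.93, with 25986 of 57820 rows at 0 in all libraries. Depth per library, and the precision it gives, is unknown. All 6 columns matched the names in the labels.

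After back-transformation, genes averaging at least 10 (14763) were tested in 1 limma 3.58.1 fit (R 4.3.3) over 6 libraries, with 4 group means (siRNA by medium by passage), trended robust eBayes and Benjamini-Hochberg adjusted p below 0.05. It has 2 residual degrees of freedom. A group of 1 library is assumed to vary like the others. Passages were kept apart because passage may change expression. The procedure was tested on simulated data. Ensembl identifiers were given symbols from a reference table (89.9% of rows), and 165 of 167 entries of 11 gene lists were matched.

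Members and lists were chosen with earlier results of these data known. The comparisons within cells labelled BRCA2 siRNA and between the controls share libraries with those results. Their p-values for the 9 genes are thus no independent test. Named are all 9 genes, BRCA2, the 3 largest differences per list and comparison (some printed, and 1 not reported here) and the 5 nearest profiles. KRT5, KRT14, FERMT1, NOTCH1, ZEB1, GRHL1, ESRP2 and the luminal markers were named after their values were seen. Alternatives changed the grouping, the filter, the scaling, the variance prior, the pairing and the libraries used.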

Additional observations from a re-analysis of the deposited data

How the results depend on the processing

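Without EGF against the passage 6 controls, 950 genes were called. The count was 146 with passages pooled into 3 groups, 46 with the passage 6 controls averaged, 76 with no filter, and 42 to 8964 when 1 library was left out. The 9 genes held 2 of these calls, 1 with the controls averaged or no filter, and 1 to 6 when 1 library was left out, which is no test of genes chosen with this comparison known. Within cells labelled BRCA2 siRNA 2406 were called, 30 with passages pooled, 203 with the controls averaged, 0 with no filter (7066 at an unadjusted limma p under 0.05) and 203 to 9215 leaving out 1 library. The 9 genes held 2 of these, 0 with passages pooled or no filter, 1 with the controls averaged or libraries centred, and 1 to 6 leaving out 1 library. At passage 4, 327 genes reached a difference of 1, and 76 with passages pooled. TFAP2A, the only one of the 9, made it 0 with passages pooled, centring or quantile normalisation. Between the controls 2963 were called, 0 with passage 6 controls averaged (2770 at an unadjusted limma p under 0.05) or no filter (7341), and 0 to 9849 leaving out 1 library. The 9 genes held 2, then 0 under both, 1 with centring or quantile normalisation, and 0 to 5 leaving out 1 library. The highest counts arose without a library lacking EGF, since the spread then comes from the close passage 6 controls alone. Centring moved the share of calls that were higher to 57.2%, against 45.5%, within cells labelled BRCA2 siRNA and to 52.6%, against 38.4%, between the controls.

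Deviations of same-lettered passage 6 libraries correlated at -0.172 over genes, so the letters were not taken as pairs. With the replicate block the counts were 1232, 937 and 2721, with 3, 1 and 1 of the 9 genes, and with the letters crossed, chosen after seeing the data, 1795, 2122 and 4211, with 3, 1 and 2. List counts under the alternatives were also added after seeing the data. Of the 9 genes' differences, KLF5 within cells labelled BRCA2 siRNA ran from -0.348 to 0.121 leaving out 1 library. TFAP2C between the controls was -0.0056 with the block and ran from -0.0326 to 0.0499 leaving out 1 library. Against the passage 6 controls TRIM29 ran from 2.72 to 2.94 over 15 alternatives, TFAP2C from -0.97 to -0.89, TP63 from 0.64 to 1.24 and KLF4 from 0.32 to 1.15. The lowest values of TP63 and KLF4 came without replicate B lacking EGF and the highest without replicate A. Depth is unknown, so low genes are limited by the transformation.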
